A study of Mus musculus with 6 samples.

Results

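The 32 genes described here are genes of autonomic and enteric neurons, and they were followed library by library in bulk RNA sequencing of mouse uterus. They were taken from the deposited table by gene symbol, and all 32 were found among its 26018 genes. The list was put together with the levels of these genes in the same 6 libraries known, above all the wide spread between control libraries, so the levels below describe the genes, and where calls from the fit of all genes are counted they support nothing about the list. The control group held 3 females with floxed Tcf21 (Tcf21f/f) and the conditional knockout group (cKO) held 3 females with the deleted allele (Tcf21d/d). All animals were 6 weeks old, matched for body weight and untreated, and each gave 1 library. Tcf21 is a transcription factor gene of mesenchyme, from the helix-loop-helix family, and the study asked which genes act downstream of it in uterine development. The sources used here do not name the Cre line, the cells it acts in, or how the tissue was trimmed.

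Autonomic neurons reach the uterus along blood vessels and into the smooth muscle, and many of their cell bodies lie in ganglia beside the cervix. Sympathetic fibres make noradrenaline through tyrosine hydroxylase and dopamine beta-hydroxylase and often carry neuropeptide Y. Parasympathetic and enteric neurons make acetylcholine, nitric oxide and peptides such as vasoactive intestinal peptide, and their lineage is specified by homeodomain factors such as Phox2a and by the receptor tyrosine kinase Ret. Most messenger RNA of a neuron stays in its cell body.

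Each library held from 14584450 to 16579573 reads on genes. Tcf21 itself had 341.4, 151.9 and 144.1 normalised reads in control replicates 1 to 3 and 26.0, 0 and 0 in cKO replicates 1 to 3, a log2 fold change of -6.03 ± 1.25 (SE) that missed the threshold (limma, Benjamini-Hochberg adjusted p = 0.0765). The uterine stroma list, with Pgr, Esr1 and Hoxa10 among its 10 genes, took 0.525 to 0.964% of reads, and a list of 10 skeletal muscle genes took 2.72 to 5.51% in controls and 5.63 to 8.16% in cKO libraries. Uterine epithelium genes took 0.0534% of reads in control replicate 1 and 0.00438 to 0.0178% elsewhere. The part of these differences between libraries in the neuron genes was not tested. In bulk RNA, fewer cells of a type and less RNA per cell cannot be told apart.

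Regulatory sequence is shown for 4 of the 32 genes, because their promoters carry the letters TGACGTCA, the palindromic cyclic AMP response element known for tying peptide and catecholamine genes to neuronal activity. Promoter windows of 250 bases before and 50 bases after the start were found for 25 of the 32 genes in a RefSeq table on GRCm38.p6, as 30 windows. The element was in 4 of these 30 windows and in 1.79% of all 32851 windows of that length. The 120 bases before the RefSeq start follow, 5′ to 3′ on the gene's strand, with the element in capitals. The gene coordinates given elsewhere are those of the deposited table, whose gene models for these 4 genes begin upstream of the RefSeq start. The windows therefore lie wholly (Th, Cartpt), mostly (Scg2) or in small part (Tmem59l) inside them.
Scg2, chr1:79440027-79440146, minus strand: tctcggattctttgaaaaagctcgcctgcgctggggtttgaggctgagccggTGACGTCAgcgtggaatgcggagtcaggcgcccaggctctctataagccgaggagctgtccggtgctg
Cartpt, chr13:99900684-99900803, minus strand: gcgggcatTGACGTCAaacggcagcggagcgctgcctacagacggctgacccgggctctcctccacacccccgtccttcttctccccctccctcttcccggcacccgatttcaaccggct
Tmem59l, chr8:70487349-70487468, minus strand: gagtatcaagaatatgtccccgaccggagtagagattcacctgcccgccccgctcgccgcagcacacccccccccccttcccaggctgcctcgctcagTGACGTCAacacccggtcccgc
Th, chr7:142899996-142900115, minus strand: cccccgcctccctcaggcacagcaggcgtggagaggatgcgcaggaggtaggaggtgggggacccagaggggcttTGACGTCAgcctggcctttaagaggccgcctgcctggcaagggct
The element began 68, 112, 22 and 45 bases before the RefSeq start of Scg2, Cartpt, Tmem59l and Th. These 4 genes did not share 1 pattern: Scg2 and Cartpt had no read in any cKO library, Tmem59l had reads in 1 of 3, and Th was low in all 6 libraries. The E-box CANNTG, the class of site that basic helix-loop-helix factors bind, was in 22 of the 30 windows and in 72.3% of all windows, and the TATA box TATAAA was in 4 (in Elavl3, Prph, Slc5a7 and Vip) and in 13.6%. Both strands were searched for each motif. A match describes letters and is no evidence of binding.

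The neuron genes were concentrated in control replicate 3. Summed over the 32 genes, they took 0.0066% of reads in control replicate 1 (95% exact binomial interval 0.0062 to 0.00704%), 0.023% in control replicate 2 (0.0223 to 0.0238%) and 0.113% in control replicate 3 (0.111 to 0.115%). In cKO replicates 1 to 3 they took 0.00983, 0.00844 and 0.00954%. Control replicate 1 therefore lay below all 3 cKO libraries, and control replicates 2 and 3 lay above them. The summed level was 6771 normalised reads in the control mean and 1457 in the cKO mean, a ratio of 4.65. Without control replicate 3 the ratio was 1.56, and with control replicate 1 as the only control it was 0.807. The direction of the difference in this sum was thus set by control replicates 2 and 3. Most of the cKO sum came from genes expressed in all 6 libraries, such as Uchl1, Nos1, Ret, L1cam and Stmn2 (cKO means 346.8, 295.1, 187.3, 179.9 and 163.9). The sum therefore says little about the genes near 0 in the cKO libraries. Gene by gene, control replicate 1 was at or below the cKO mean for 18 of the 32 and above every cKO library for 10. Such intervals come from 1 library each, so they cover counting error only and leave out differences between animals. They are too narrow where reads copied by PCR are not independent molecules.

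**Figure D1:**
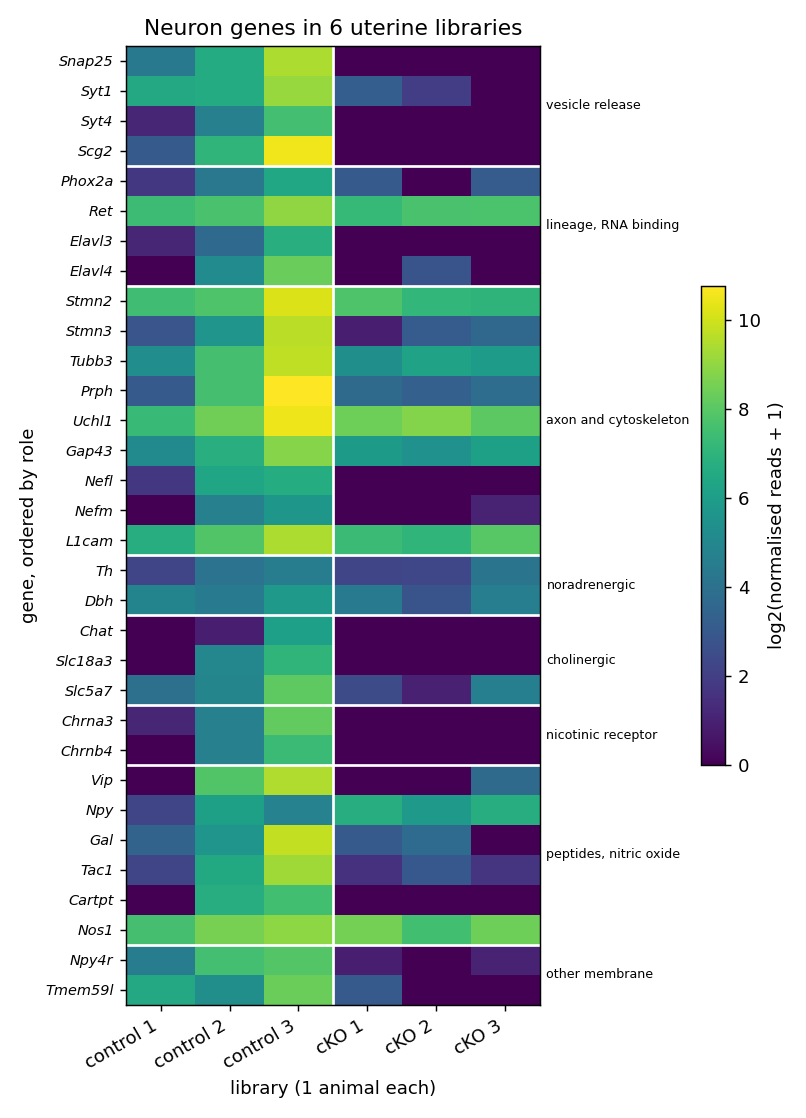
Level of each of the 32 neuron genes (rows, grouped by role) in the 6 libraries (columns, 1 animal each), with colour giving log2(normalised reads + 1). The column of control 3 is the brightest for 31 of the 32 genes, and 10 genes are at 0 in all 3 cKO columns.

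Of the 32 genes, 31 were highest in control replicate 3, where 18.8% of all listed genes had their highest value, and the exception was Npy. For 29 genes the values stood in the order control replicate 3, 2, 1 from high to low, an order shown by 14.6% of all listed genes. Control replicate 3 lay above every cKO library for 31 genes (28.5% of all listed genes), control replicate 2 for 26 (31.6%) and control replicate 1 for 10 (32.1%). Since the list was chosen with these values known, the shares are given for scale and nothing is read from them. No read was found in any cKO library for 10 genes (Snap25, Syt4, Scg2, Elavl3, Nefl, Chat, Slc18a3, Chrna3, Chrnb4 and Cartpt), and control replicate 1 had no read for 7. With 3 reads taken as the limit that an absence of reads allows, a gene could still stand at 2.79, 2.93 and 3.31 normalised reads in cKO replicates 1 to 3 and at 3.66 in control replicate 1.

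The vesicle release genes among the 32 are Snap25, Syt1, Syt4 and Scg2, and all were near 0 in the cKO uteri. Snap25 (chromosome 2, 136713453 to 136782428, plus strand, GRCm38), a membrane-anchored SNARE that drives vesicles to fuse, was at 19.5, 98.0 and 693 normalised reads in control replicates 1 to 3 and at 0 in the cKO animals. Syt1 (chromosome 10, 108497650 to 109010982, minus strand), the calcium sensor of fast transmitter release, was at 90.2, 98.0 and 558.7 in controls and at 8.4, 2.9 and 0 in cKO replicates 1 to 3. For both genes all 3 cKO libraries lay below all 3 controls, and control replicate 3 was the highest. Syt4, a synaptotagmin of dense-core vesicles, was at 1.2, 25.2 and 185 in controls and at 0 in the cKO animals. Scg2 (chromosome 1, 79434669 to 79440120, minus strand), a granin packed into peptide granules, was at 7.3, 133 and 1512 in controls and at 0 in the cKO animals. With each cKO library set at its limit of 3 reads, the control mean of Scg2 was at least 183-fold higher, and at least 23.3-fold higher without control replicate 3. For Syt4 the bounds were 23.4-fold and 4.38-fold. Exons of an antisense gene covered 14.5% of the exon bases of Syt4, and no source says that reads were counted by strand.

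Genes of autonomic lineage and neuronal RNA binding split into Ret, present everywhere, and the others. Ret, the receptor for glial-derived neurotrophic factors, was at 165.8, 206.7 and 508.9 in controls and at 145.9, 203.8 and 212.1 in cKO animals, so controls 1 and 2 lay within the cKO range. Phox2a, a homeodomain factor of noradrenergic and enteric precursors, was at 2.4, 18.9 and 88.1 in controls and at 7.4, 0 and 7.7 in cKO animals. Elavl3, a neuronal RNA-binding protein of the Hu family, was at 1.2, 11.7 and 110.3 in controls and at 0 in the cKO animals, at least 13.65-fold lower, or 2.14-fold without control replicate 3. Its relative Elavl4 was at 0, 35.9 and 313.2 in controls and at 0, 5.9 and 0 in cKO animals. Control replicate 1 lay within the cKO range for Phox2a and Elavl4, and its Elavl3 value was under the limit set by 3 reads.

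The genes of axons and cytoskeleton formed the largest group. Prph (chromosome 15, 99055174 to 99058978, plus strand), the intermediate filament of peripheral neurons, was at 7.3, 190.5 and 1752 in controls and at 12.1, 8.8 and 13.3 in cKO animals. Stmn3, a tubulin-binding stathmin, was at 6.1, 48.5 and 806 in controls and at 0.9, 7.8 and 11 in cKO animals. For both genes control replicate 1 was inside or below the cKO range, and control replicate 3 stood far above every other library. Nefl, the light neurofilament chain, was at 2.4, 81.8 and 102.3 in controls and at 0 in the cKO animals, a bound of 20.7-fold, or 14.0-fold without control replicate 3. Nefm, the medium chain, was at 0, 25.2 and 51.6 in controls and at 0, 0 and 1.1 in cKO animals. Nefl and Nefm lie on opposite strands and share exon bases, 32.8% of those of Nefl and 19.2% of those of Nefm, so reads there cannot be assigned between them.

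A second set of axonal genes was expressed in all 6 libraries. Uchl1, a ubiquitin hydrolase abundant in neurons, was at 152.4, 346.9 and 1448 in controls and at 337.3, 436.9 and 266.3 in cKO animals. L1cam, an axonal adhesion molecule, was at 103.6, 230.1 and 695.7 in controls and at 162.6, 129.7 and 247.5 in cKO animals. Stmn2, a growth-cone stathmin, was at 178, 222.9 and 1166 in controls and at 221.2, 141.4 and 129.3 in cKO animals. For Uchl1 and L1cam, control replicate 2 lay within the cKO range and control replicate 1 below every cKO library. For Stmn2, control replicate 2 lay just above the highest cKO value. Control replicate 3 was far above the rest in all 3 genes. Gap43, a growth-cone protein that Schwann cells also make, was at 34.1, 106 and 445.7 in controls and at 57.6, 42.9 and 69.6 in cKO animals. Tubb3, the neuronal beta-tubulin, was at 37.8, 194.1 and 861.2 in controls and at 40.0, 72.2 and 59.7 in cKO animals. For Gap43 and Tubb3, control replicate 1 was again below every cKO library, and control replicate 2 was above every one. An antisense gene covers 18.1% of the exon bases of Uchl1, and stretches of Stmn2, Uchl1 and L1cam of up to 104, 232 and 141 bases are nearly identical to other genes, so part of their reads is uncertain in origin.

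The noradrenergic genes were low in every library and overlapped between control and cKO animals. Th (chromosome 7, 142892752 to 142931128, minus strand), tyrosine hydroxylase, was at 3.7, 16.2 and 22.2 in controls and at 3.7, 3.9 and 16.6 in cKO animals. Dbh, which turns dopamine into noradrenaline, was at 28.0, 21.6 and 54.3 in controls and at 21.4, 5.9 and 23.2 in cKO animals. Summed, they took 0.000178, 0.000259 and 0.000548% of reads in controls and 0.000163, 6.25e-05 and 0.000247% in cKO animals, on 10 to 86 reads per library.

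The cholinergic genes were seen mainly in control replicates 2 and 3. Chat, choline acetyltransferase, was at 0, 0.9 and 65.8 in controls, which is 0, 1 and 74 reads, and at 0 in the cKO animals. Slc18a3, the vesicular acetylcholine transporter, whose gene lies inside that of Chat, was at 0, 30.6 and 129.9 in controls and at 0 in the cKO animals, at least 17.8-fold lower (5.08-fold without control replicate 3). The bound for Chat was 7.39-fold, and without control replicate 3 its control mean was under the limit. Slc5a7, the choline transporter of nerve endings, was at 14.6, 28.8 and 270.5 in controls and at 4.6, 1.0 and 24.3 in cKO animals, where cKO replicate 3 lay above control replicate 1. Only Slc5a7 of the 3 genes had reads in a cKO library.

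The nicotinic receptor subunits of autonomic ganglia were absent from the cKO reads. Chrna3 (chromosome 9, 55010111 to 55026562, minus strand) was at 1.2, 25.2 and 293.6 in controls and at 0 in the cKO animals. Its neighbour Chrnb4 was at 0, 25.2 and 163.7 in controls and at 0 in the cKO animals. The 2 subunits pair in the receptor that carries transmission from preganglionic to ganglionic cells, and they were level in control replicate 2, at 28 reads each. At the limit of 3 reads the control mean was at least 35.4-fold higher for Chrna3 and 20.9-fold for Chrnb4, or 4.38-fold and 4.18-fold without control replicate 3.

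**Figure D2:**
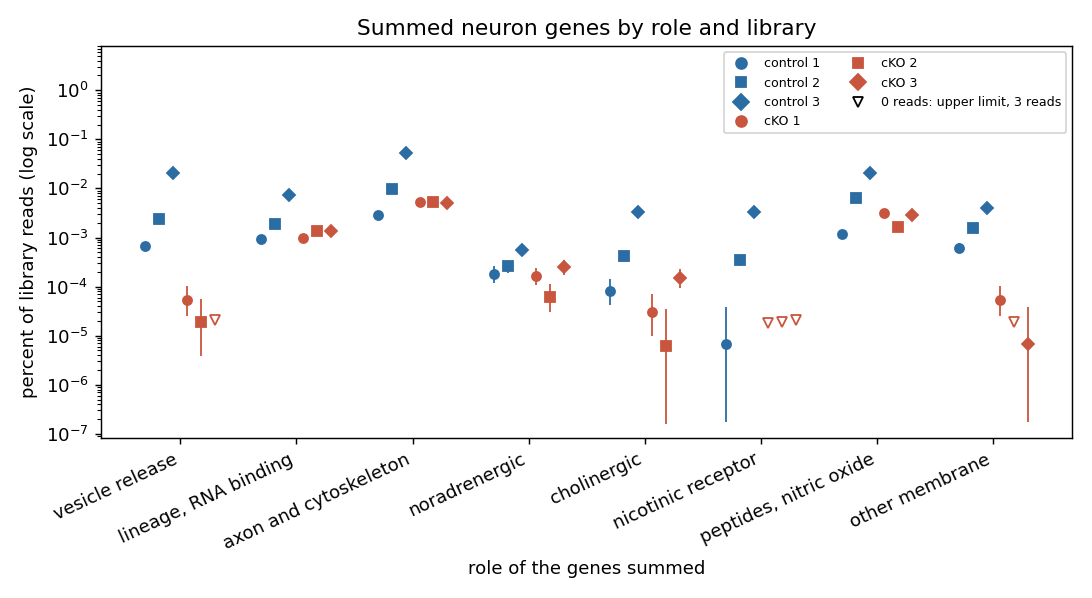
Percent of library reads (log scale) taken by the neuron genes summed by role, for each library, with 95% exact binomial intervals for counting error and open triangles at 3 reads where a library had none. The nicotinic subunits have 0 reads in all 3 cKO libraries, whereas the noradrenergic genes overlap between control and cKO.

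Peptide genes followed the cholinergic pattern, except Npy. Vip (chromosome 10, 5639218 to 5647617, plus strand), which encodes a relaxant peptide of uterine and gut nerves, was at 0, 226.5 and 709.9 in controls and at 0, 0 and 12.2 in cKO animals. Gal, which encodes galanin, was at 9.8, 47.6 and 891.4 in controls and at 7.4, 12.7 and 0 in cKO animals. Tac1, the precursor of substance P, was at 3.7, 92.6 and 608.5 in controls and at 1.9, 6.8 and 2.2 in cKO animals. In all 3 genes control replicate 1 lay inside the cKO range and controls 2 and 3 above it. Cartpt, the precursor of a peptide of autonomic and enteric neurons, was at 0, 105.2 and 181.5 in controls and at 0 in the cKO animals, at least 31.75-fold lower, or 17.5-fold without control replicate 3.

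Npy and Nos1 departed from the others. Npy (chromosome 6, 49822710 to 49829507, plus strand), neuropeptide Y, was at 3.7, 68.3 and 26.7 in controls and at 105, 54.6 and 105 in cKO animals. Its cKO mean was 88.2 ± 29.1 (SD, n = 3) against 32.9 ± 32.8 in controls, and control replicate 2 overlapped cKO replicate 2. Nos1, the neuronal nitric oxide synthase, which skeletal muscle fibres also make, was at 190.2, 373.9 and 491.1 in controls and at 368.9, 180.4 and 335.9 in cKO animals, so the groups overlapped. Skeletal muscle genes, as given above, took more reads in each cKO library than in any control, and their part in the Nos1 level was not tested.

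The remaining genes encode membrane proteins. Npy4r (chromosome 14, 34143992 to 34152489, minus strand), a receptor for peptides of the pancreatic polypeptide family, was at 21.9, 185.1 and 239.3 in controls and at 0.9, 0 and 1.1 in cKO animals. Tmem59l (chromosome 8, 70483867 to 70487358, minus strand), a brain-enriched membrane protein, was at 89.0, 39.5 and 329.2 in controls and at 7.4, 0 and 0 in cKO animals. In both genes all 3 controls exceeded all 3 cKO libraries. The cKO values of Npy4r rest on 1, 0 and 1 reads. Control replicate 2 reached nearly the level of control replicate 3 for Npy4r, whereas for Tmem59l it was the lowest control.

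Levels compared per length, as RPKM (reads scaled by gene length and by the reads of the library), gave another order. In control replicate 3 the highest were Gal (89.7 RPKM), Uchl1 (63.6), Prph (62.8), Stmn3 (50.8) and Scg2 (43.1), and the lowest were Nefm (0.639), Th (0.674) and Chat (1.00). In the cKO mean the order was Uchl1 (13.6 ± 3.51 RPKM, SD, n = 3), Npy (9.91 ± 3.24), Gap43 (2.37 ± 0.522) and Tubb3 (1.95 ± 0.544), followed by Stmn2 (1.87), Ret (1.76), Nos1 (1.68) and L1cam (1.55). Uchl1 and Npy overlapped within their SD, as did neighbours from Gap43 downwards. Gal, first in control replicate 3, was at 0.606 ± 0.574 RPKM in the cKO animals.

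The excess of control replicate 3 over control replicate 2 was not the same for all neuron genes. Over the sum of the 32 genes it was 4.70-fold (95% counting interval 4.53 to 4.87), with a median over genes of 4.95-fold, whereas over 15522 genes with at least 10 reads in both libraries the median was 1.01-fold. The highest ratios were those of Chat, at 73.2-fold on 74 against 1 read (12.7 to 2932), Gal at 18.7-fold (14.2 to 25.2) and Stmn3 at 16.6-fold (12.6 to 22.3). Chrna3 and Scg2 followed at 11.7-fold (7.92 to 17.8) and 11.4-fold (9.61 to 13.5). At the other end, Nefl at 1.25-fold (0.942 to 1.67), Npy4r at 1.29-fold (1.07 to 1.56), Nos1 at 1.31-fold (1.15 to 1.495), Th at 1.38-fold (0.721 to 2.67) and Cartpt at 1.73-fold (1.37 to 2.19) had the lowest ratios above 1. Npy was lower in control replicate 3, at 0.391-fold (0.247 to 0.604). The intervals of Gal and Cartpt do not meet. They cover counting error in 1 library each, and give no error between animals.

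**Figure D3:**
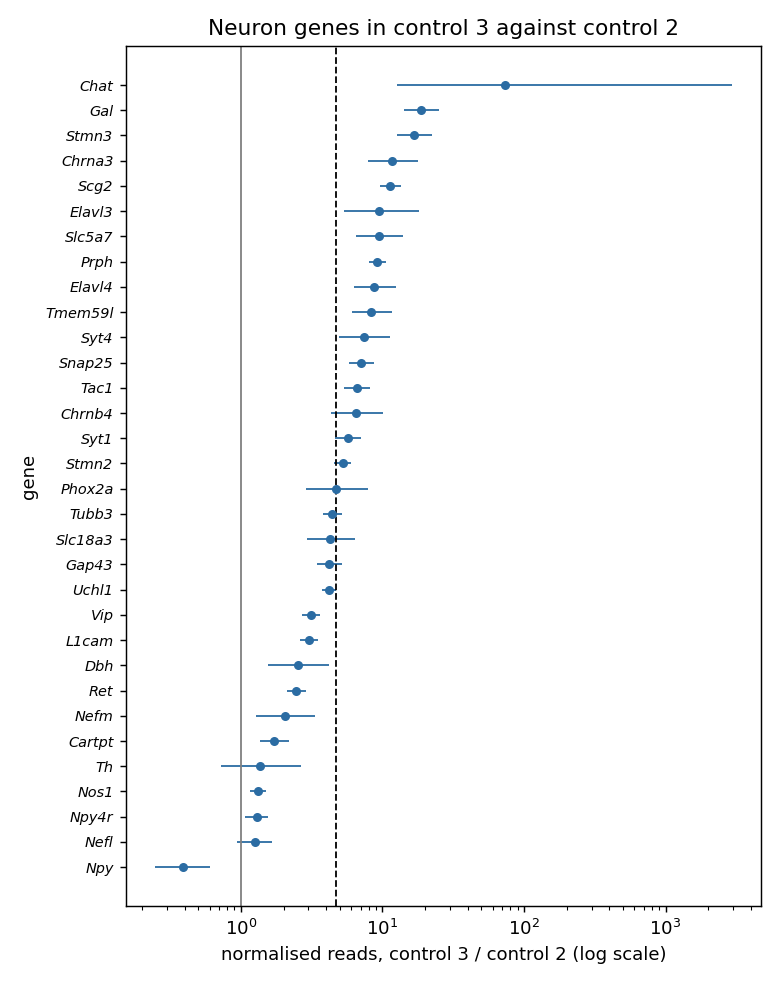
Ratio of normalised reads in control 3 to control 2 (log scale) for each neuron gene, with 95% counting intervals. The grey line marks equal levels and the dashed line the ratio of the sum, 4.70, and Npy lies below 1 while Chat, Gal and Stmn3 lie above 16.

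In the fit of all genes (limma on log2(normalised reads + 1), Benjamini-Hochberg adjusted p under 0.05), 19 of the 32 genes passed the filter on low reads. Of these 19, 4 were called lower in the cKO uteri (Snap25, Syt1, Npy4r and Tmem59l), against 0.889% of all tested genes, and none was called higher, against 0.276%. The 4 genes had 0 to 9 reads in each cKO library and passed the filter only through their control reads. Passing the filter was therefore tied to the direction called. The list was also chosen on this contrast, so nothing is read from the count or from the median given below. The fitted log2 fold changes were -5.98 ± 0.98 (SE, n = 3 per group) for Npy4r, -5.71 ± 1.07 for Tmem59l and -5.69 ± 0.98 for Syt1. Snap25 had no read in the cKO libraries, and its fitted value depends on the added 1, at -6.81 ± 1.19 against -7.79 with 0.5 added and -4.59 with 5. At the limit of 3 reads its control mean was at least 89.8-fold higher, or 19.5-fold without control replicate 3. Over the 19 genes the median log2 fold change was -1.72, against 0.002 over all tested genes, with 18 below 0 and Npy at 2.04 ± 0.90. The largest negative values without a call were -4.53 ± 2.54 for Vip and -3.99 ± 1.72 for Gal. The other 13 genes did not pass the filter. With no filter the count of neuron genes called was again 4, of 32, against 200 of 26018 genes called lower.

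The calls depended on which libraries were used. Without control replicate 1, 15 of 31 tested neuron genes were called lower, while calls over all genes also rose, to 347 of 17075 from 145 of 16314. None was called without control replicate 2, control replicate 3, cKO replicate 2 or cKO replicate 3, and without cKO replicate 1 the only call was Tmem59l. Over all genes, 90 of 16866 were called lower without control replicate 2 and 235 of 16882 without control replicate 3. Without cKO replicates 1, 2 and 3 in turn, the calls over all genes fell to 69 of 17039, 47 of 17048 and 42 of 17200. edgeR's quasi-likelihood test on recovered reads called 1 of 19, Npy4r (0.736% of all genes), and DESeq2 called 7 (3.54%), adding Prph, Slc5a7 and Stmn3. The authors' deposited table lists 12 of the 32 as lower at an adjusted p under 0.05, against 2.37% of its genes with a p-value. With control replicate 3 left out, log2 fold changes turned above 0 for Uchl1 (0.56), L1cam (0.17) and Nos1 (0.08), and that of Nos1 was 0.11 without cKO replicate 2. Npy kept a value above 0 with each library left out, from 0.96 to 2.91. Prph, Stmn3, Gal and Vip stood at -1.71, -1.67, -2.23 and -2.68 on the log2 scale once control replicate 3 was left out.

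**Figure D4:**
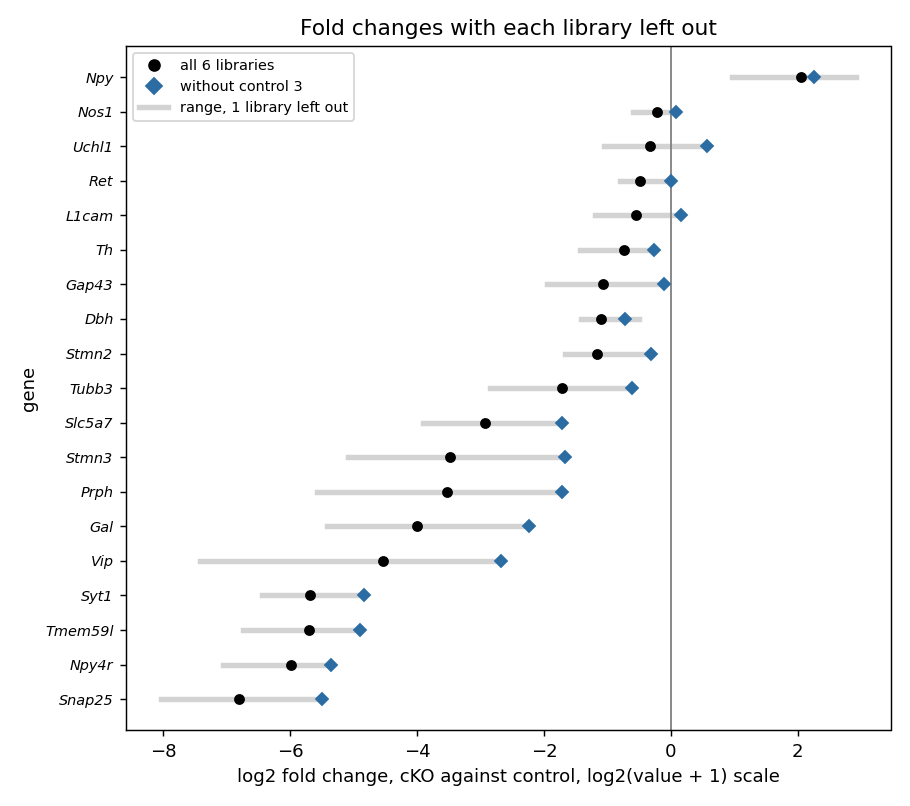
Log2 fold change, cKO against control, of the 19 tested neuron genes, on the log2(value + 1) scale, with all 6 libraries (black), without control 3 (blue) and as the range with 1 library left out (grey bar). Snap25, Npy4r, Tmem59l and Syt1 stay below -4 throughout, and Npy stays above 0.

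Neuronal genes outside the 32 were counted from 8 lists (vesicle release, axon and adhesion, autonomic transcription factors, amine and acetylcholine handling, peptide processing, receptors on target cells, channels, and neurotrophic factors). These hold 159 genes in the table, of which 112 were tested. Of the 112, 4 fell in the cKO uteri, none rose and 108 missed the threshold (limma, Benjamini-Hochberg adjusted p), against 0.889% lower and 0.276% higher over all tested genes. An unadjusted p under 0.05 was found for 35 of the 112 and for 2236 of the 16314 genes tested. Of the 159, 96 were highest in control replicate 3, against 18.8% of all listed genes. Their median log2 fold change was -0.476 over the 112 tested genes. The 25 vesicle release genes outside the 32 summed to 0.0277, 0.0455 and 0.0826% of library reads in controls and to 0.0308, 0.0366 and 0.0341% in cKO animals, so control replicate 1 was below every cKO library, and 1 of the 23 tested fell.

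Map1b, a microtubule-associated protein of growing axons, fell from 1248 ± 164 (SD, n = 3) to 525.8 ± 37.9 normalised reads, which is -1.24 ± 0.16 (SE) on the log2 scale (limma adjusted p = 0.00895). It was level across the controls, at 1182, 1129 and 1435, and at 529.6, 561.7 and 486.2 in the cKO animals. Cpe, the carboxypeptidase that trims peptide precursors, fell from 7844 ± 2788 to 2192 ± 424.7 (log2 fold change -1.78 ± 0.29, limma adjusted p = 0.0283). Cntn1, an axonal adhesion molecule of the contactin family, fell from 289.4 ± 94.7 to 28.6 ± 29.3 (-3.72 ± 0.65, 0.0379), and Sv2a, a synaptic vesicle glycoprotein, from 151.5 ± 107.2 to 18.7 ± 4.44 (-2.75 ± 0.53, 0.0491). These genes did not follow the order of the neuron genes across controls, apart from Sv2a, which was at 70.7, 110.5 and 273.1. With control replicate 1 as the only control, Map1b and Cpe were still called (log2 fold changes -1.17 and -1.10), and Cntn1 and Sv2a were not (-3.53 and -1.89). In that fit the lone control is assumed to vary like the cKO group. All 4 calls were lost without cKO replicate 2 or without cKO replicate 3 (limma adjusted p from 0.0559 to 0.235), with log2 fold changes close to those from all libraries. Those of Map1b were -1.29 and -1.19, of Cpe -1.75 and -1.67, of Sv2a -2.75 and -2.58 and of Cntn1 -3.49 and -3.16. Sv2a, Cntn1 and Cpe also lost theirs without control replicate 2 or 3, and Sv2a, Map1b and Cpe without cKO replicate 1. The replicate block ended the calls of Sv2a (0.0623) and Cpe (0.0533), and edgeR those of Sv2a (0.0507) and Cntn1 (0.0912).

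The other lists held no call. Hand2, a helix-loop-helix factor of autonomic neurons and of uterine stroma, was at 302.4, 436.8 and 1108 in controls and at 72.5, 14.6 and 48.6 in cKO animals (limma adjusted p = 0.0539). Next by mean in that list came Gata2, with 474.2 ± 274.2 (SD, n = 3) in the control group against 226.9 ± 20.4 in the cKO group, and Hoxb5, with 235.6 ± 196.3 against 148.9 ± 35.1. Among receptors on the target side, Gucy1a1 and Gucy1b1, the subunits of the nitric oxide receptor, averaged 705.2 ± 186.1 and 445.2 ± 266.3 in the control group against 490.8 ± 98.4 and 281.7 ± 51.9 in the cKO group. Ntrk2, a neurotrophin receptor, averaged 846.7 ± 86.4 against 880.7 ± 143.3, and Ngfr 931 ± 329.7 against 442.5 ± 37.3 (limma adjusted p = 0.089). The acetylcholine-degrading enzyme Ache was at 375.5, 440.4 and 1017 in controls and at 397.7, 734.3 and 718.2 in cKO animals. The potassium channel Kcna2 was at 259.7, 294.8 and 1103 in controls and at 449.7, 307.2 and 495 in cKO animals. Ache and Kcna2 were highest in control replicate 3, as the neuron genes were, with overlap between groups.

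Chosen after their values were seen, the somatostatin gene Sst was at 1.2, 73.7 and 1009 in controls and the serotonin-gated channel Htr3a at 0, 59.3 and 411, and both were at 0 in the cKO animals. Both had the order of most of the 32, high in control replicate 3, low in control replicate 2 and near 0 elsewhere.

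Glial genes, which accompany axons and ganglia, were listed separately. The list of Schwann cell and enteric glia markers took 0.0348, 0.0446 and 0.0632% of reads in controls and 0.082, 0.0584 and 0.0808% in cKO animals. It held 16 genes, of which 8 were highest in control replicate 3, against 18.8% of all listed genes. Of its 15 tested genes 3 rose in the cKO uteri and none fell, against 0.276% higher and 0.889% lower over all tested genes. Among them Mbp, myelin basic protein, rose from 635.5 ± 23.3 to 1444 ± 383.6 (SD, n = 3), which is 1.15 ± 0.21 (SE) on the log2 scale (limma adjusted p = 0.0412). Prx, periaxin of myelinating Schwann cells, rose from 241.5 ± 23.2 to 522.4 ± 97.6 (1.10 ± 0.20, 0.0379). Across controls Mbp was at 623, 662.4 and 621 and Prx at 224.3, 267.8 and 232.2, an order unlike that of the neuron genes. Both lost the call without cKO replicate 1, without cKO replicate 3 and without control replicate 3 (limma adjusted p = 0.0615 for Mbp and 0.0557 for Prx in the last), Prx without cKO replicate 2 and Mbp without control replicate 2, and Prx with the replicate block (0.064). Sox10, the Schwann and glial lineage factor, was at 140.2, 156.4 and 551.6 in controls and at 303.8, 195 and 394.5 in cKO animals. Gfap, a filament of enteric glia chosen after its values were seen, was at 7.3, 92.6 and 268.7 in controls and at 2.8, 0 and 7.7 in cKO animals, the order of the neuron genes.

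Markers of other neurons, of gut and of neighbouring tissues were summed in the same way. Intestinal epithelium genes peaked in control replicate 2, at 0.0213% of reads against no more than 0.00524% elsewhere. Of the 14 genes found, 6, 0 and 10 had no read in control replicates 1 to 3 and 8, 9 and 10 in cKO replicates 1 to 3. In control replicate 3 most of the sum of 731.3 normalised reads was Lgals4, at 641.4. Sensory neuron genes took 0.00415 to 0.0068% of reads in controls and 0.00495 to 0.00908% in cKO animals. Of that list, 6 of 12 genes were in the table, and most of the sum was Runx1 and Avil (507.1 and 342.5 in control replicate 3), so it rests on few markers. Of the 6, 1 was highest in control replicate 3, namely Scn11a, at 2.4, 3.6 and 48.9 in controls and 0 in the cKO animals. Genes of interstitial cells of Cajal, the pacemaker cells of gut muscle, took 0.0694, 0.063 and 0.105% in controls and 0.0814 to 0.0959% in cKO animals. Most of that sum was Thbs4 and Gja1 (9218 and 2753 in control replicate 3), so it hides the other genes. Of the 7 genes in the list, 5 were highest in control replicate 3, against 18.8% of all listed genes. The defining receptor Kit averaged 525.2 ± 567.5 (SD, n = 3) in the control group against 176.6 ± 49.3 in the cKO group, with its highest value, 1169, in control replicate 3. Enteroendocrine genes took 0.00428% in control replicate 3 and 0.000523 to 0.000816% elsewhere. Chga and Chgb of that list, which neurons also make, were at 326.5 and 242 in control replicate 3, nearly all of its 597.8 normalised reads there. Both are also in the peptide processing list. Motor neuron markers took 0.0074% in control replicate 3 and 0.00145 to 0.00198% elsewhere, with Chodl at 701 and Slit2 at 320.3 in control replicate 3. Only 3 of the 5 genes of that list were found, and the third, Isl2, was at 12.5 there, so nearly all of the sum is Chodl and Slit2. The list of adrenal genes took 0.00105 to 0.00367% and that of bladder urothelium 0.00256 to 0.00326%. The highest adrenal share was in control replicate 3, where Chga, also in that list, was its largest part. Smooth muscle genes took 1.06 to 1.58% of control reads and 0.492 to 0.675% of cKO reads, with 8 of 10 called lower, against 0.889% over all tested genes, and control replicate 1 the lowest control, as it was for the neuron genes. The part of each in the neuron genes was not tested.

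**Figure D5:**
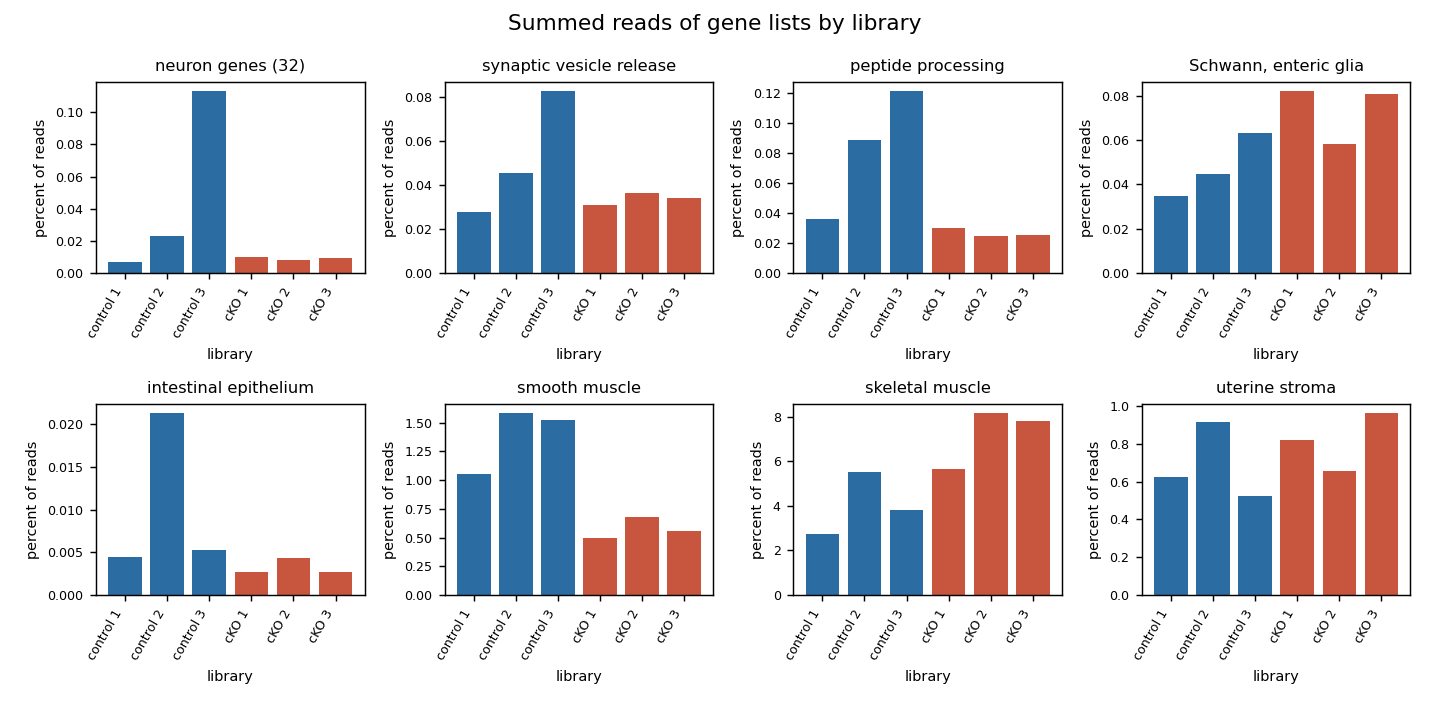
Percent of reads taken by 8 gene lists in each library (bars, controls in blue and cKO in red, each panel with its own axis from 0). Neuron genes peak in control 3 at 0.113% and intestinal epithelium in control 2 at 0.0213%. The Schwann and glial sum rises from control 1 to control 3, as that of the neuron genes does, but is highest in cKO 1, at 0.082%.

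Genes outside the list with the most similar pattern were found by Pearson's r across the 6 libraries between log2(value + 1) and the same log of the summed neuron level, among genes with a mean of at least 20 normalised reads. The 12 highest had r from 0.984 to 0.997, a description over 6 points that share 1 extreme library. Several are neuronal, such as Tlx2, a homeobox factor of enteric neurons (0, 6.29 and 185 in controls and 0 in cKO animals), the kappa opioid receptor Oprk1 (0, 5.39 and 183.3, and 0), Dpp10, Kcnip2, Doc2b and Rims3. Others are broadly expressed and moved little in size, such as Wdr45b, which had the highest r at 474.3, 568 and 728.6 in controls and 470 to 493.9 in cKO animals. Also among the 12 were Aifm2, Zfp346, Rgs4 and Rgs5, the last a gene of vascular mural cells, at 4124, 6964 and 18270 in controls.

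Genes specific to 1 library were counted as those with at least 20 reads there and at least 10 times the value of every other library. There were 88 in control replicate 3, 378 in control replicate 1, 58 in control replicate 2, and 1, 2 and 0 in cKO replicates 1 to 3. The 88 of control replicate 3, out of 26018 listed genes, included 5 of the 32 neuron genes and 9 genes of the 8 neuronal lists. In each of control replicates 1 and 2 these counts were 0 and 1. The neuron genes and the lists were chosen with earlier results of these data known, so nothing is read from these counts. In control replicate 3 the 12 with the largest ratio, a library with no read counted as 1 read, were Cdk5r2, Chat, Scn9a, Crybb2, Oprl1, Tmem145, Fstl5, Gpr61, Oprk1, Slc5a11, Epha8 and Tlx2. Cdk5r2, a neuronal activator of the kinase Cdk5, was at 120.1 in control replicate 3 and at most 1.1 elsewhere, and Scn9a, a sodium channel of peripheral neurons, at 56.9 and at most 0.9.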

How the data were processed

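Total RNA from uterus was sequenced as 1 library per animal. Per the submitters' processing notes, HISAT2, SAMtools and featureCounts were used (versions not listed), and GRCm39 is named as the build. Whether strand was used, and how multiply aligned reads were counted, is not stated there. The deposited signal values are gene read counts that the authors divided by 1 factor per library: 100% of values in each column came out as whole reads, to within 0.01, after division by the smallest step, and the reads recovered gave 14584450 to 16579573 per library. The authors' log2 fold changes and p-values stand in the same deposited table. Of 25988 genes found in GENCODE vM21 (GRCm38), 25239 had identical coordinates, as did 30 of the 32 neuron genes, so coordinates are read as GRCm38. In 24 rows a symbol turned into a date was restored by gene identifier.

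Differences were tested with limma 3.58.1 (R 4.3.3, trend and robust options) after taking log2(value + 1), on 16314 genes kept by edgeR 4.0.16 (filterByExpr), 3 control against 3 cKO libraries, adjusted over all genes at 0.05. The added 1 understates the change of genes with few reads. Alternatives were pseudocounts of 0.5 and 5, no filter, TMM scaling, edgeR, DESeq2 1.42.0, a replicate block and leaving out each library. The test was tried on simulated reads. Exon overlap, and matches of 95% identity or more over 100 bases elsewhere (blastn 2.17.0), were looked up for the 32 genes and the called list genes. The neuron genes, the lists and the rule for named genes were chosen with earlier results of these data known. By that rule the text gives all 32 genes, from each other neuronal list the called genes or up to 3 with the highest mean, and the 12 genes most similar in pattern. A few genes that the rule names are not reported here.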

Additional observations from a re-analysis of the deposited data

How the results depend on the processing

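The count of neuron genes called lower was 4. It was 2 with a pseudocount of 0.5, 1 with edgeR and 7 with DESeq2, and 0 to 15 with 1 library left out. Of the other neuronal list genes 4 of 112 were called lower, 9 of 159 without a filter, 2 with edgeR, 28 with DESeq2 and 0 to 26 with 1 library left out. Over all genes 145 were lower and 45 higher. DESeq2 called 578 and 280, no filter gave 200 lower and 82 higher of 26018 genes, and leaving out 1 library gave 42 to 347 lower and 1 to 117 higher. Leaving out both control replicates 2 and 3, chosen after seeing the data, gave 670 lower and 407 higher genes, 0 neuron genes lower and 1 higher (Npy), 8 other neuronal list genes lower and 1 higher, and turned the ratio of summed neuron genes to 0.807. That ratio was 4.65, 5.13 on the CPM scale, 4.6 with TMM scaling and 1.56 to 6.57 with 1 library left out. The cause of these changes was not tested. The replicate block gave 149 lower and 34 higher genes, 3 of the 32 neuron genes and 4 other neuronal list genes. Deviations of same-numbered libraries from their group means had correlations of 0.0084, -0.176 and 0.0438. Deviations within a group of 3 cancel out, so these correlations cannot show whether the replicate numbers pair the animals. A gene with 0 reads in a library may still be present at up to 3 reads, and 13 of the 32 genes entered only fits without the filter or with a library left out.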
